A study of Mus musculus with 2 samples.

Results

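The ATP-binding cassette (ABC) transporters and the UDP-glucuronosyltransferases (UGT) were examined as 1 set of 65 genes, chosen by symbol among the 20807 protein-coding genes of GENCODE M21 on mouse chromosomes 1 to 19. The set holds 43 ABC genes (16 Abca, 9 Abcb, 10 Abcc, 2 Abcd and 6 Abcg; 1 further Abcd gene is left out by the rule) and 22 UGT genes. Of the UGT genes, 9 belong to the Ugt1 cluster, whose members share their last exons, and were kept apart from the other 13 (10 Ugt2, 2 Ugt3 and Ugt8a). Because symbols chose the set, it holds lipid transporters, testis genes and sulfonylurea receptors beside the pumps and enzymes of detoxification. Open chromatin was mapped with the enzyme DNase I, which cuts where DNA is accessible (DNase-seq), in 2 kidney libraries from female B6CASTF1/J mice aged 36 days, an F1 cross of the strains C57BL/6J and CAST/EiJ. There was 1 group and no second condition or control, so values of the libraries are set side by side and no difference was tested. The labels number the females separately but give both the same donor entry, so only the replicate numbers speak for separate animals, and the spread between the libraries may be technical.

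UGT enzymes join glucuronic acid, or another sugar, from a UDP-sugar to bilirubin, steroids, phenols and drugs, which makes them soluble. ABC transporters use ATP to carry such conjugates, unmodified drugs, lipids or metabolites across membranes, and in the proximal tubule of the kidney several ABCC pumps, ABCB1 and ABCG2 pass conjugates and drugs into urine. Genes of both families are known to be induced through nuclear receptors, the aryl hydrocarbon receptor and NRF2.

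The libraries held 124504 peaks (replicate 1) and 68056 peaks (replicate 2), of which 52.7% and 96.3% overlapped a peak of the other library by at least 1 base; read depth is unknown. Peak height is the authors' signal value on a scale that the sources used here do not give, with a median of 1.33 in replicate 1 and 1.46 in replicate 2. Promoters of kidney markers had a peak in both libraries at 4 of 5 proximal tubule genes, at all 5 genes of the loop, distal tubule and collecting duct and at 2 of 2 endothelial genes. The 2 podocyte genes had a peak in replicate 1 only. At the 2 leukocyte and 3 hepatocyte markers neither library had a promoter peak, and of 3 enterocyte markers only Vil1 had a peak, in replicate 1. The authors' wider (more-row) peak set held replicate 1 promoter peaks at the 2 leukocyte markers and at the hepatocyte markers Alb and Ttr. It held a replicate 2 peak at the enterocyte marker Sis. Peaks of both libraries were in it at Vil1, the podocyte gene Nphs1 and the proximal tubule gene Slc22a6. In whole kidney, fewer open cells of a type and less open chromatin per cell cannot be told apart.

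A promoter was the 1 kb on each side of any annotated start. Of the 56 genes outside the Ugt1 cluster, 30 (53.6%) had a promoter peak in both libraries, 11 in replicate 1 only and 15 in neither, and none had a peak in replicate 2 alone. Among all 20807 genes, 62.2% had a promoter peak in both. The position of the set against all genes thus depended on the library. In replicate 1, 73.2% of the 56 genes had a promoter peak against 68.4% of all genes, and in replicate 2, 53.6% against 62.3%. The genes with a peak in replicate 1 alone, 19.6% of the 56, stood beside 6.22% of all genes.

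The ABC and UGT families parted within the set. Both libraries had a promoter peak at 27 of 43 ABC genes (62.8%), close to the share of all genes, and at 6 of 22 UGT genes (27.3%, the Ugt1 genes included). By subfamily the counts were 12 of 16 for Abca, 6 of 9 for Abcb, 6 of 10 for Abcc, 2 of 2 for Abcd and 1 of 6 for Abcg. Among UGT genes they were 3 of 9 for Ugt1, 1 of 10 for Ugt2 and 2 of 2 for Ugt3, and Ugt8a had a peak in replicate 1 only.

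**Figure D1:**
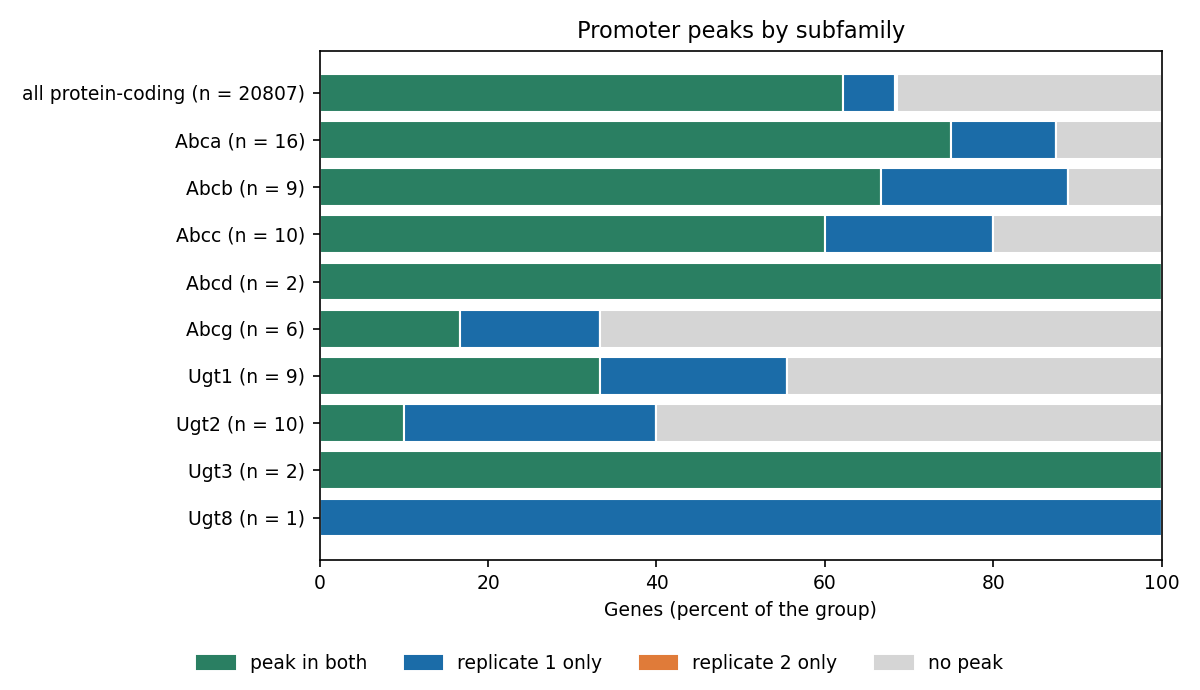
Share of genes (percent of each group, horizontal axis) with a promoter peak in both libraries, in 1 library or in neither, for all protein-coding genes and each subfamily, with the number of genes in parentheses. Abca, Abcb and Abcc lie near or above the 62.2% of all genes for peaks in both, and Abcg, Ugt1 and Ugt2 lie below it.

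Base composition differed between the families. The CpG ratio, the observed over the expected number of CG pairs in the 500 bases on each side of the gene's 5′ end, placed 18 of 22 UGT genes but 10 of 43 ABC genes in the CpG-poorest group of 6936 genes. In that group 22.1% of all genes had a promoter peak in both libraries, as had 5 of the 18 UGT and 5 of the 10 ABC genes. In the middle group the share of all genes was 72.1%, against 15 of 23 ABC genes and 1 of 3 UGT genes. In the CpG-richest group it was 92.3%, against 7 of 10 ABC genes and 0 of 1 UGT gene. ABC genes thus had peaks in both libraries above the share of all genes where the 5′ end was CpG-poorest and below it in the other groups, with few genes in each. Peaks were counted at any start, so a peak can lie away from the scored bases. At Abcg2, 1 of the 5 ABC genes of the CpG-poorest group with such peaks, the ratio at the 5′ end was 0.0914. Its tallest promoter peak lay 56.0 kb into the gene. The part of base composition in the difference between the families was not tested.

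Height went with presence in replicate 2. For each gene the tallest promoter peak was taken. All 33 genes of the set with a promoter peak in both libraries were taller in replicate 1, by a median ratio of 1.62, with a lowest ratio of 1.13 and a highest of 2.30; over all genes the median ratio was 1.48, and 12427 of 12932 were taller in replicate 1, so the direction is shared by most genes. Of the 18 genes of the set with a height of 4 or more in replicate 1, all had a replicate 2 peak, against 99.9% of all genes from 4 to 8 and 99.99% from 8 up. Of those from 2 to 4, 12 of 13 did, against 97.2%. Of those from 1 to 2, 3 of 8 did, against 70.2% of all genes at that height, and of those below 1, 0 of 7 did, against 22.0%.

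**Figure D2:**
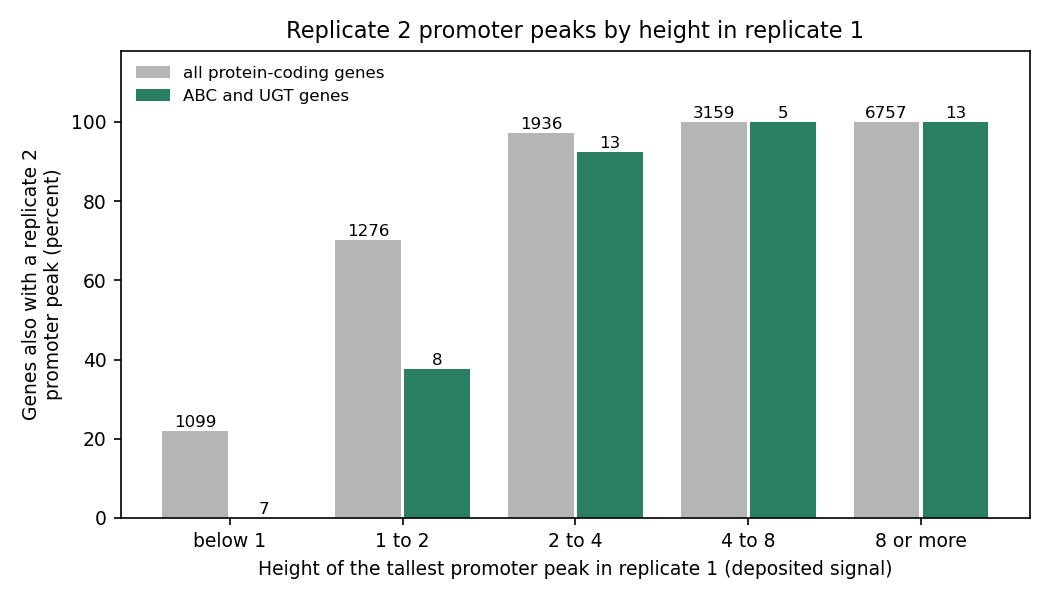
Percent of genes that also had a replicate 2 promoter peak (vertical axis) by the height of the tallest promoter peak in replicate 1 (horizontal axis, deposited signal), for all protein-coding genes (grey) and the 65 ABC and UGT genes (green), with the number of genes with a replicate 1 peak above each bar. At heights of 4 or more nearly all genes had a replicate 2 peak, and below 2 the ABC and UGT genes lie under all genes.

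**Figure D3:**
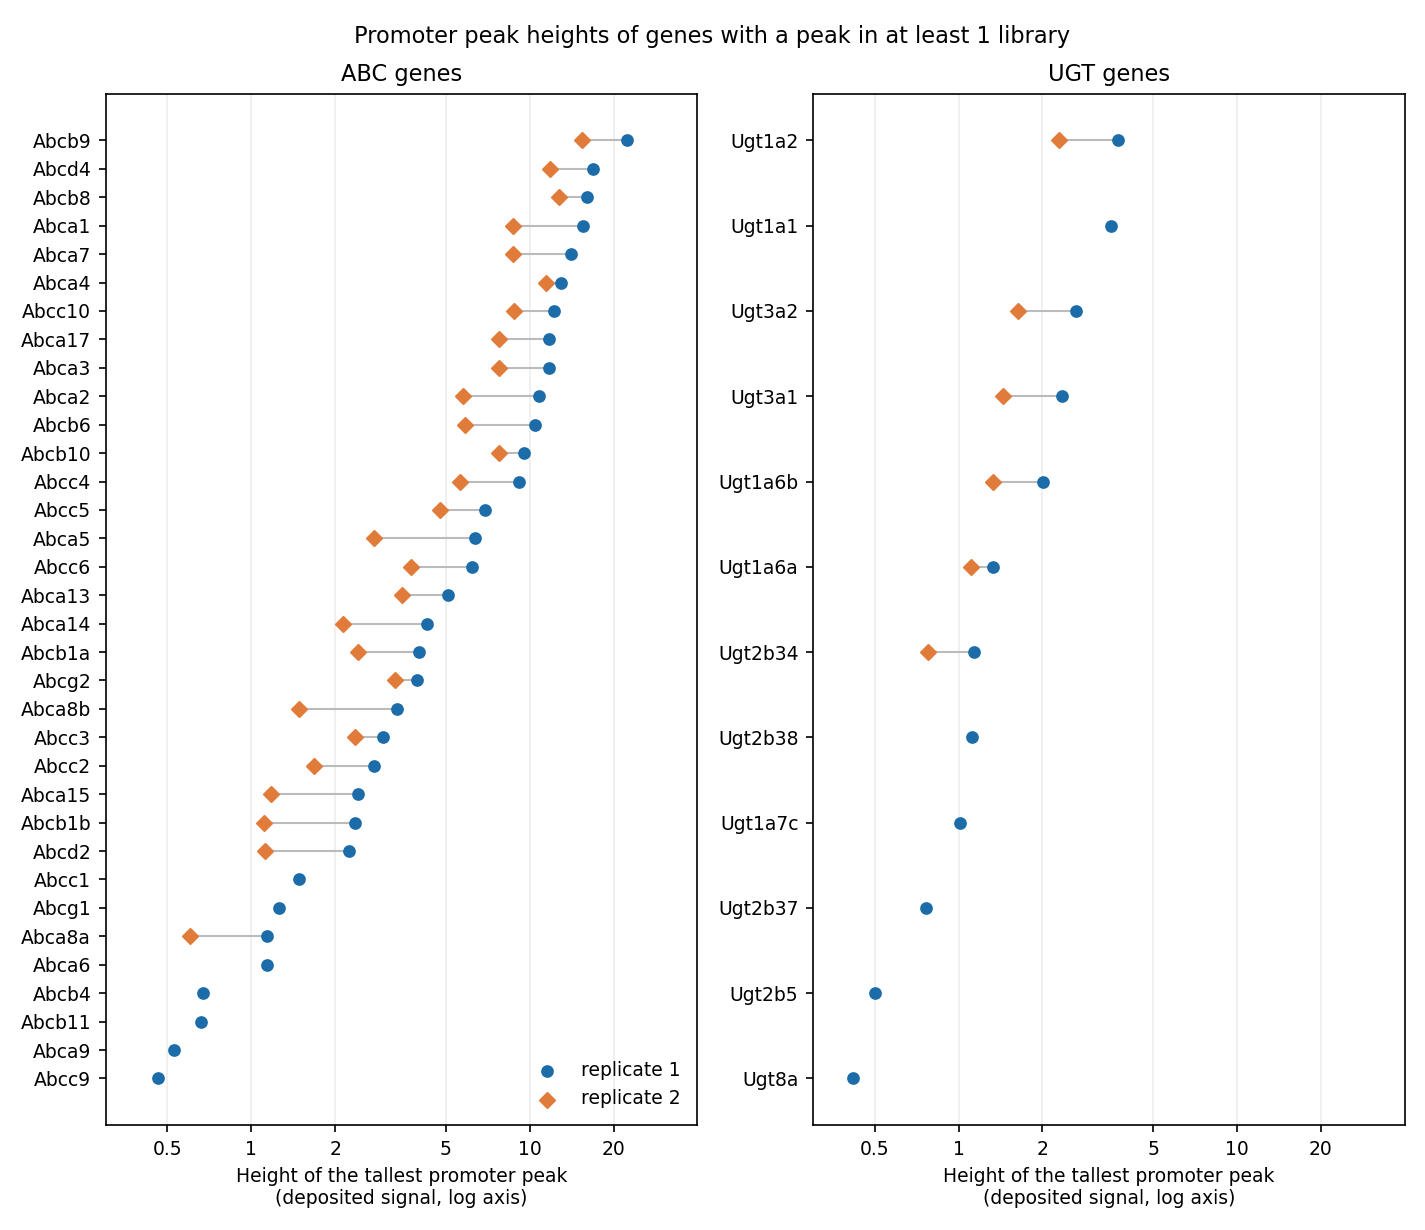
Height of the tallest promoter peak (horizontal log axis, deposited signal) in replicate 1 (blue circles) and replicate 2 (orange diamonds) for the 46 genes with a peak in at least 1 library, 1 row per gene. Each gene with both marks is taller in replicate 1, and the UGT genes lie below 4 where many ABC genes lie above it.

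The tallest promoter peaks, those of Abcb9, Abcd4 and Abcb8, belonged to the list of lysosomal and mitochondrial transporters. All 5 genes of that list (Abcb6, Abcb8, Abcb9, Abcb10 and Abcd4) had a peak in both libraries, against 62.2% of all genes. These proteins carry a single membrane module and work as dimers. Abcb9, which moves peptides into lysosomes, had heights of 22.3 and 15.4 in replicates 1 and 2, within the top 0.670% and 2.07% of all peaks. Abcd4, which takes part in the release of cobalamin (vitamin B12) from lysosomes, had heights of 16.9 and 11.8. Abcb8, of the inner mitochondrial membrane, had 16.1 and 12.8. These were the highest mean ranks in the set. Abcb6, a porphyrin transporter, stood at 10.4 and 5.86, and Abcb10, which supports haem synthesis in mitochondria, at 9.53 and 7.77. The order of Abcb8 and Abcd4 changed with the library, and so did that of Abcb6 and Abcb10.

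The Abcb9 and Abcd4 sequences below show what lies under these peaks. They are the mm10 reference on the gene's strand, 5′ to 3′. The Abcb9 peak, chr5:124095801-124096060 (minus strand, positions -262 to -3 from the gene's 5′ end), held 7 GC boxes (GGGCGG, on either strand), in capitals, each in a footprint of both libraries. A footprint is a short stretch protected from cutting. In the Abcd4 stretch, chr12:84617414-84617560 (minus strand, positions -147 to -1), which is the part of the peak before the 5′ end, capitals mark the 62 bases in footprints of both libraries, and none of the searched motifs matched. The rest of that peak, which is not printed, held a GC box in footprints of both libraries at chr12:84617397-84617402. Of the Abcb8 peak, only chr5:24394359-24394387 (plus strand) is shown, with a CCAAT box in a footprint of both. Of the Abcb10 peak, chr8:123983135-123983164 (minus strand) is shown, with an element of NRF1, a nuclear respiratory factor, in such a footprint. This stretch, the Abcb8 stretch and the sequences of other genes below, except that of the Abca4 peak, were chosen after their values were seen.
Abcb9 promoter: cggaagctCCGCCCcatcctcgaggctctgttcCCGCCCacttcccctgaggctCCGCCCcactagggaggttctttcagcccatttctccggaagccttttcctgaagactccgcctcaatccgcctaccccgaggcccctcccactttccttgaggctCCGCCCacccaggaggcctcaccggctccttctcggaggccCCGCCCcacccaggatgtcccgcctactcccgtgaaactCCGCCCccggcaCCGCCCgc
Abcd4 promoter: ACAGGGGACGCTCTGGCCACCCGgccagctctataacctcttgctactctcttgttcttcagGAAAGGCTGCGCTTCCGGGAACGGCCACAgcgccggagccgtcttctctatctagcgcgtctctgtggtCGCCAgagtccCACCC
Abcb8 CCAAT box: tgtgtcttttctCCAATcatcgctgagaa
Abcb10 NRF1 element: cctgagtgcCGCGCATGCGCActccgccag

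In replicate 1, the transporters of cholesterol and other lipids with a peak in both libraries stood between Abcb8 and Abcb6 in height. Of 8 genes of the lipid list, 5 (62.5%) had a promoter peak in both libraries (Abca1, Abca2, Abca3, Abca4 and Abca7), against 62.2% of all genes. Abcg1 had a peak in replicate 1 only, and Abca12 and Abcg4 in neither. Abca1, which loads cholesterol onto apolipoprotein A-I, had heights of 15.6 and 8.74. Abca7, a related phospholipid exporter, had 14.1 and 8.74. Abca2, a transporter of lysosomal lipids, had 10.8 and 5.75. Abca1 and Abca7 were thus level in replicate 2. Abcg1, which passes cholesterol to high-density lipoprotein, had a peak of 1.25 at its start in replicate 1 and none in replicate 2.

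Abca3 and Abca17, both counted among the 12 Abca genes with a peak in both libraries, had the same tallest promoter peak, which lay at the Abca3 start. Abca3 fills the lamellar bodies of lung surfactant, and Abca17 is a testis gene whose start lies head to head with it. A single peak, chr17:24351861-24352080, with heights of 11.7 and 7.73, lies in both windows; its middle is 21 bases from the Abca3 start and -903 bases from the nearest Abca17 start. When a peak was counted for the nearest start alone, Abca17 no longer had a peak in both libraries; its other window peak, in replicate 1 alone, had a height of 0.315. The peak near Abca3 holds an NRF1 element in a footprint of both libraries, in capitals in chr17:24352016-24352045 (plus strand).
Abca3 NRF1 element: gcggcccagTGCGCACGCGCGctccgacgc

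Abca4, the retinoid transporter of photoreceptors, came next after those 3 by mean rank, at 13.0 and 11.5, the most even pair in the set. That peak, chr3:122122241-122122440 (plus strand), is not at the gene's 5′ end: its middle lies 77.9 kb into the gene, 587 bases from the start of another annotated transcript. With the gene's 5′ end as the only start, Abca4 was not among the genes with a promoter peak in both libraries. The same held for Abcg2, Ugt3a1 and, in the Ugt1 cluster, Ugt1a6b. The sequence holds a CCAAT box outside footprints, and capitals mark the 7 bases in footprints of both libraries.
Abca4 internal peak: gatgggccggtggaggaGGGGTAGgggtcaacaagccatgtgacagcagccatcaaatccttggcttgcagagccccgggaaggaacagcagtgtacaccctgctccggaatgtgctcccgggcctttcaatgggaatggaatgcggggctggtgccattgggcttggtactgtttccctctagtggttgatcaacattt

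The other 6 Abca genes with a peak in both libraries (Abca5, Abca8a, Abca8b, Abca13, Abca14 and Abca15) had heights from 1.14 to 6.34 in replicate 1 and from 0.601 to 3.46 in replicate 2. Abca5, Abca6, Abca8a, Abca8b and Abca9 form a cluster on chromosome 11 whose products are little known. Of these, 3 of 5 had a peak in both, against 62.2% of all genes, and Abca6 (1.14) and Abca9 (0.529) had a peak in replicate 1 only. In the wider peak set Abca6 also had a replicate 2 promoter peak, of 0.479. Of the testis-type Abca genes, 3 of 4 had a peak in both, Abca17 through the peak near Abca3, and Abca16 had none. USF elements (CACGTG) lay in footprints of both libraries at Abca13 and Abca8b. They are in capitals in chr11:9191317-9191354 (plus strand, positions -625 to -588 of Abca13) and in chr11:109995810-109995839 (minus strand, Abca8b).
Abca13 USF element: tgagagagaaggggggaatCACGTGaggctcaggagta
Abca8b USF element: gccatgcgcggtCACGTGtccgtggtgttt

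Of the 11 pumps of drugs and conjugates, 9 (81.8%) had a promoter peak in both libraries, against 62.2% of all genes. Their heights spanned a wide range. Abcc10 (MRP7), an exporter of lipophilic drugs, was the highest of the list at 12.2 and 8.80. Abcc4 (MRP4), an apical pump of the proximal tubule for cyclic nucleotides and anionic drugs, had 9.15 and 5.61. Abcc5 (MRP5), which exports cyclic nucleotides, had 6.89 and 4.76. The next in order was Abcc6, whose product drives ATP release and whose loss causes soft-tissue calcification, with 6.20 and 3.75. These 4 kept their order in both libraries.

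The pumps best known from drug excretion had lower promoter peaks. Abcb1a and Abcb1b, which encode P-glycoprotein in mice, had heights of 3.999 and 2.42 and of 2.35 and 1.11. Abcg2, the breast cancer resistance protein that exports urate and sulfate conjugates, had 3.94 and 3.29. Abcb1a was above Abcg2 in replicate 1 and below it in replicate 2. Abcc3 (MRP3), a basolateral pump of conjugates, had 2.96 and 2.35, and Abcc2 (MRP2), its apical counterpart, had 2.76 and 1.68. Abcc1 (MRP1), the exporter of glutathione conjugates and leukotriene C4, had a peak of 1.48 at its start in replicate 1 and none in replicate 2. For Abcc12 (MRP9) neither library had a promoter peak.

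At Abcg2 the peak that holds the start was footprinted at a cyclic AMP response element (CRE). The peak, chr6:58640381-58640600, lies 56.0 kb into the annotated gene, whose first start is far upstream, and -55 bases from the nearest annotated start. The stretch chr6:58640480-58640530 (plus strand) holds, in capitals, a GC box and a CRE (TGACGTCA), both in footprints of both libraries. From 250 bases before to 50 after the gene's 5′ end, none of the 65 genes held a CRE, against 2.43% of all genes.
Abcg2 CRE: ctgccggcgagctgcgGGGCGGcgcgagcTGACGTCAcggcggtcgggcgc

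Export of bile and sterols had no promoter peak in both libraries at any of 4 genes, against a share of 62.2% among all genes. Abcb4, the phosphatidylcholine floppase of bile, and Abcb11, the bile salt export pump, had low peaks in replicate 1 only, of 0.668 and 0.659. The Abcb11 peak, chr2:69239481-69239680, was not at the 5′ end of the gene, which spans chr2:69238282-69342616 on the minus strand. It lay -503 bases from an annotated start near the gene's 3′ end. Abcg5 and Abcg8, which form the sterol exporter of gut and liver, had a promoter peak in neither library. They lie head to head, and a peak in an Abcg5 intron, chr17:84672501-84672680, had heights of 3.98 and 3.10 at 1.78 kb from the nearest Abcg5 start. The sulfonylurea receptor genes Abcc8 and Abcc9, which regulate ATP-sensitive potassium channels, had a promoter peak in neither library and in replicate 1 only (0.464). Abcd2, a peroxisomal transporter of very long fatty acids, had heights of 2.25 and 1.12. The remaining ABC genes with no promoter peak were Abca12, which supplies skin lipids, Abca16, Abcb5, Abcg3 and Abcg4. Among all 9 ABC genes with a peak in neither library, the deposited false discovery rate files listed no interval in the promoter windows of Abca12, Abca16, Abcb5, Abcc8, Abcg3, Abcg5 and Abcg8. At Abcc12 they listed 20 bases in replicate 2 with a lowest rate of 0.0402, and at Abcg4 195 bases in replicate 1 with a lowest rate of 0.0168.

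Outside the Ugt1 cluster the UGT promoter peaks were low or absent. Ugt3a1 and Ugt3a2, which use UDP-N-acetylglucosamine or UDP-glucose, had heights of 2.36 and 1.45 and of 2.64 and 1.63. Ugt2b34 was the only Ugt2 gene with a peak in both libraries, at 1.13 and 0.774; the Ugt2b enzymes glucuronidate steroids, bile acids and drugs. Ugt2b38 (1.11), Ugt2b37 (0.761) and Ugt2b5 (0.501) had a peak in replicate 1 only, as had Ugt8a (0.418), which makes the galactolipid of myelin. In the wider peak set Ugt2b38 and Ugt8a also had a replicate 2 promoter peak, of 0.387 and 0.520. The 6 Ugt2 genes without a peak were Ugt2a1, Ugt2a2, Ugt2a3, Ugt2b1, Ugt2b35 and Ugt2b36. The deposited false discovery rate files listed no interval at 5 of them in either library, and at Ugt2b35 23 bases in replicate 1 with a lowest rate of 0.0491.

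As a measure of how uniquely reads can be placed, the share of 31-base stretches of each promoter window that recur in mm10 was counted. It had a median of 3.28% in ABC genes (0 to 20.7%) and of 19.4% in UGT genes (0 to 61.3%). The Ugt1 genes had a median of 25.8% and the other UGT genes of 12.9%. The part of repeated sequence in the UGT counts was not tested.

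The Ugt1 cluster, chr1:88055388-88220002, spans 165 kb with 9 genes on the plus strand, each with its own 5′ end and first exon. The start chr1:88103252 is annotated to both Ugt1a6b and Ugt1a7c. Both libraries had a promoter peak at 3 of the 9. Ugt1a2 had heights of 3.73 and 2.29, Ugt1a6b 2.00 and 1.32, and Ugt1a6a, a phenol-conjugating enzyme, 1.33 and 1.11. The Ugt1a6b peak lay at the edge of its window, -961 bases from an internal start (chr1:88106862) and not at the gene's 5′ end (chr1:88103252). It was lost with a window of 500 bases and with the 5′ end as the only start. Ugt1a1, the bilirubin-conjugating enzyme, and Ugt1a7c had a peak in replicate 1 only, at 3.52 and 1.01. In the wider peak set Ugt1a7c also had replicate 2 promoter peaks, of up to 0.520. Ugt1a5, Ugt1a8, Ugt1a9 and Ugt1a10 had none. At Ugt1a10 the wider peak set held 2 replicate 1 promoter peaks, of up to 0.353. The deposited false discovery rate files listed 346 bases there in replicate 1, with a lowest rate of 0.00286. They listed no interval at Ugt1a5, Ugt1a8 and Ugt1a9 in either library.

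Ugt1a1 differed between the libraries more than most genes with a peak of its height. Its replicate 1 peak, chr1:88211821-88211980, had its middle -58 bases from the start, and the lowest deposited false discovery rate in the window was 1.9e-13. In replicate 2 no interval was listed in the window, nor was there a peak in the wider peak set. Of 941 genes with a tallest replicate 1 promoter peak from 3 to below 4 in height, 931 (98.9%) had a replicate 2 peak. Of the 1295 genes with a replicate 1 peak alone, 7 were as tall as Ugt1a1 or taller, Ugt1a1 included, and the median height of the 1295 was 0.779. Of the 31-base stretches of the Ugt1a1 window 25.8% recurred in mm10, and the part of this in the difference between the libraries was not tested.

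Counted once as a locus with 10 kb on each side, the cluster held 20 peaks in replicate 1 and 19 in replicate 2, of which 10 were shared. Only 3 of the shared peaks had their middle within 1 kb of a Ugt1 start. The tallest in both libraries, chr1:88195781-88196000, had heights of 6.69 and 3.50 and lay at -4710 bases from the Ugt1a2 start. The peaks next in height in replicate 1 were that of Ugt1a2 and a peak of 3.59 (1.58 in replicate 2) at chr1:88140701-88140880, in the intron after the Ugt1a6a start. The first peak of either library had its middle 38.97 kb past the first base of the cluster, beyond the starts of Ugt1a10, Ugt1a9 and Ugt1a8. The 9 unshared peaks of replicate 2 all lay past the cluster's end, at chr1:88223041-88228320, with heights from 0.306 to 0.591, and each ranked 94.1% or more of the way down that library's peaks.

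**Figure D4:**
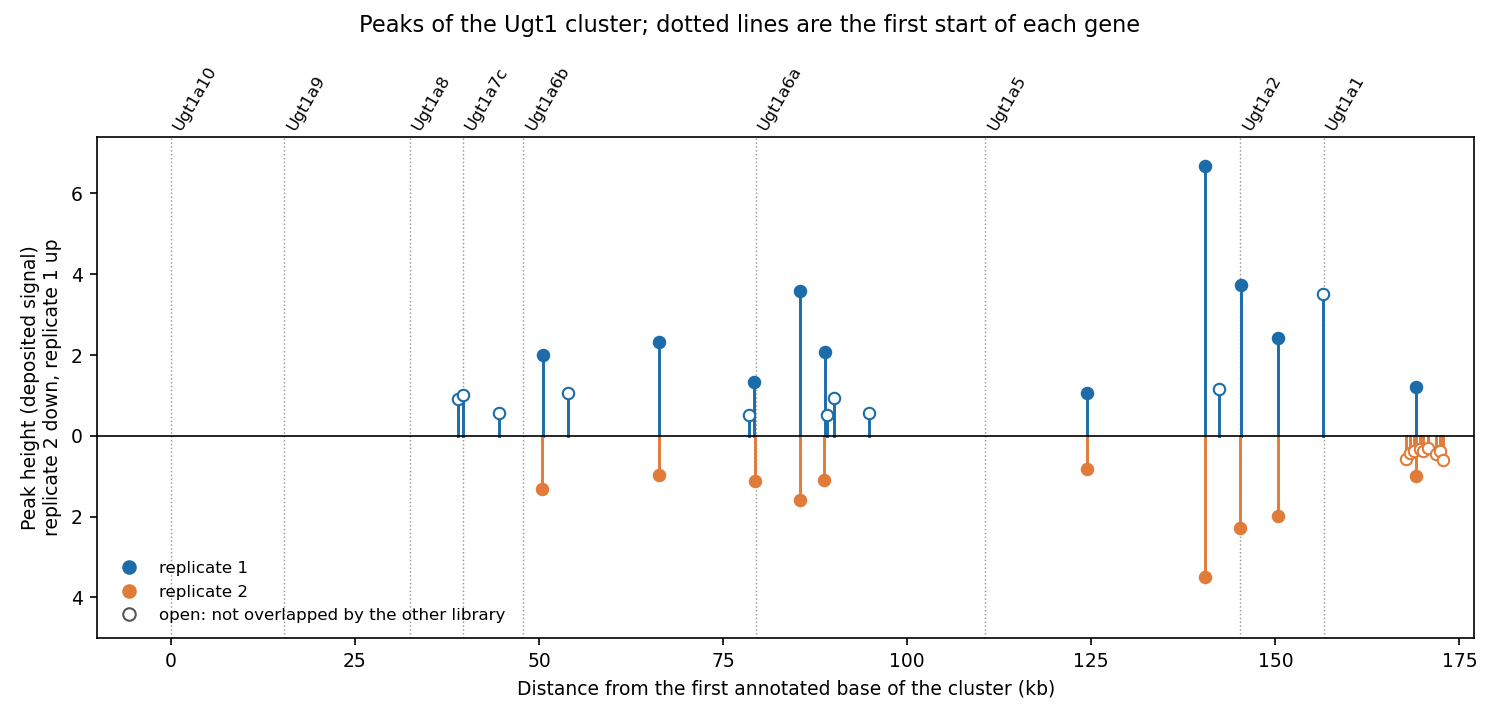
Peaks of the Ugt1 cluster and 10 kb on each side by distance from its first base (kb, horizontal axis), with peak height (deposited signal) upward for replicate 1 and downward for replicate 2; filled points overlap a peak of the other library and dotted lines mark the first start of each gene. The tallest shared peak lies upstream of Ugt1a2, the open circle at Ugt1a1 has no replicate 2 partner, and the low open circles at the right are the 9 unshared replicate 2 peaks.

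The sequences below show the starts where the libraries agreed, where they differed and where neither had a peak. All are on the plus strand of mm10. In the tallest shared peak, capitals mark a match to the short HNF1 core (GTTAAT, read on either strand) in a footprint of both libraries. In the Ugt1a2 stretch, chr1:88200521-88200600 (positions -80 to -1), and the Ugt1a1 stretch, chr1:88211821-88211958 (positions -138 to -1), capitals mark bases in footprints of replicate 1, and the HNF1 core at Ugt1a1 lies in one of these. The Ugt1a9 stretch, chr1:88070656-88070718, and the Ugt1a10 stretch, chr1:88055308-88055370, hold the full HNF1 consensus, in capitals. Neither gene had a promoter peak in the stricter peak set, whereas the wider set held low replicate 1 peaks in the Ugt1a10 window. Neither consensus match lay in a footprint of either library.
Ugt1 tallest shared peak: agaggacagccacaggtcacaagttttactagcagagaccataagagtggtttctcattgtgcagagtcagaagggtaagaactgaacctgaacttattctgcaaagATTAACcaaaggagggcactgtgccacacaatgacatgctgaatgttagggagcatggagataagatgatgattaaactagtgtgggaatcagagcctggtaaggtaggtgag
Ugt1a2 promoter: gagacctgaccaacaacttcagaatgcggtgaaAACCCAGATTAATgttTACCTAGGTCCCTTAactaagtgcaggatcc
Ugt1a1 promoter: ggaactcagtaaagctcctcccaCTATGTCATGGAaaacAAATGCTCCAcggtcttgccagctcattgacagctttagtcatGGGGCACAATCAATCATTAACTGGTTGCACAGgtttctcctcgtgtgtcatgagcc
Ugt1a9 HNF1 consensus: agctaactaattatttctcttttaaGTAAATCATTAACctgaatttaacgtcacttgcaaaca
Ugt1a10 HNF1 consensus: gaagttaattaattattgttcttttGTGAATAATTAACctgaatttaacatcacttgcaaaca

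In the stretch from 250 bases before to 50 after the 5′ end, the full HNF1 consensus was found at 2 of 22 UGT genes, 0 of 43 ABC genes and 0.120% of all genes. The core GTTAAT, added after the data were seen, was found at 6 of 22 UGT genes (Ugt1a1, Ugt1a6a, Ugt1a6b, Ugt1a9, Ugt1a10 and Ugt2a3), at 0 of 43 ABC genes and at 6.52% of all genes; each full match contains a core. Genes of a cluster share sequence by descent, so these are not separate cases. GC boxes were at 19 of 43 ABC genes, near the 43.8% of all genes, and at 3 of 22 UGT genes. CCAAT boxes were at 16 ABC genes, 5 UGT genes and 38.6% of all genes. The antioxidant response element TGACNNNGC was at 4 ABC genes (Abca8b, Abcc2, Abcc4 and Abcg4), no UGT gene and 12.7% of all genes, and the xenobiotic response element TNGCGTG at Abcb8, Abcc4, Ugt1a5 and 5.93% of all genes. The USF element was at 7 ABC genes, no UGT gene and 7.83% of all genes. A match is a description of the letters and not a bound site, and the motifs can overlap.

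Shared peaks were most numerous at a few ABC genes. Within a gene and its 10 kb flanks, the median number of peaks shared by the libraries was 2 in the 56 genes outside the Ugt1 cluster, 3 in ABC genes and 3 in all genes, and 48 of the 56 held at least 1, against 77.6% of all genes. Without the flanks the median was 1 in both the 56 genes and all genes. Abca4 had 14, Abcc4 12, Abca1 8, Abcg2 7 and Abcb8 6. Abca3, Abcc1 and Abcc3 had 5 each, and 7 further genes had 4. These counts include promoter peaks. Of peaks over 1 kb from every annotated start, Abcc4 had 8, Abca4 and Abca1 7 each, Abcc1 5, Abcg2 4 and Abcb8 1. Per 100 kb of gene and flanks the order among the first 5 was another: Abcb8 had 16.5, Abca4 8.99, Abca1 5.37, Abcg2 5.34 and Abcc4 4.93. The genes of the set were longer, with a median of 59431.5 bases in the 56 genes and 17629 in all genes. Per 100 kb the median number of shared peaks was 3.01 in the 56 genes, 3.40 in ABC genes and 4.73 in all genes.

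Counting each peak once, 143 shared peaks lay around these 56 genes: 47 in their own promoters, 58 in introns, 7 in exons, 18 in the promoter of another gene, 10 in upstream and 3 in downstream flanks. Peaks over 1 kb from every annotated start were present at 35 of the 56 genes. At 16 of the 35 the tallest of these was taller than any shared promoter peak, and 15 of the 16 had no shared promoter peak at all; the other is Abcc4.

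In neither library was the promoter peak of Abcc4 its tallest. The peak chr14:118709821-118710000, 3.69 kb before the start, had heights of 11.6 and 6.34 against 9.15 and 5.61 at the promoter, so it was the higher of the pair in both libraries. Another tall peak, chr14:118635521-118635820, lay 70.5 kb into the gene with heights of 8.27 and 6.92, the highest of the 3 in replicate 2. The other 9 shared peaks of the gene stood at 3.45 or less in replicate 1.

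Abca4 and Abca1 carried their peaks differently. The 14 shared peaks of Abca4 lay from 2.02 to 125 kb into the gene and none at its 5′ end. After the internal peak of 13.0, the tallest were 7.91 and 3.97 at 60.2 kb and 6.89 and 5.31 at 30.1 kb, and the latter was the taller in replicate 2. At Abca1 the tallest was the promoter, a peak of 6.99 and 3.29 followed at 1.07 kb, and the other 6 lay between 42.6 and 77.2 kb with heights up to 4.39 in replicate 1. At Abcg2 5 of 7 shared peaks fell between 49.4 and 56.7 kb, around the start with the CRE. A peak of 3.84 and 2.66 lay 6.63 kb before that start, nearly as tall in replicate 1 as the promoter peak itself.

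**Figure D5:**
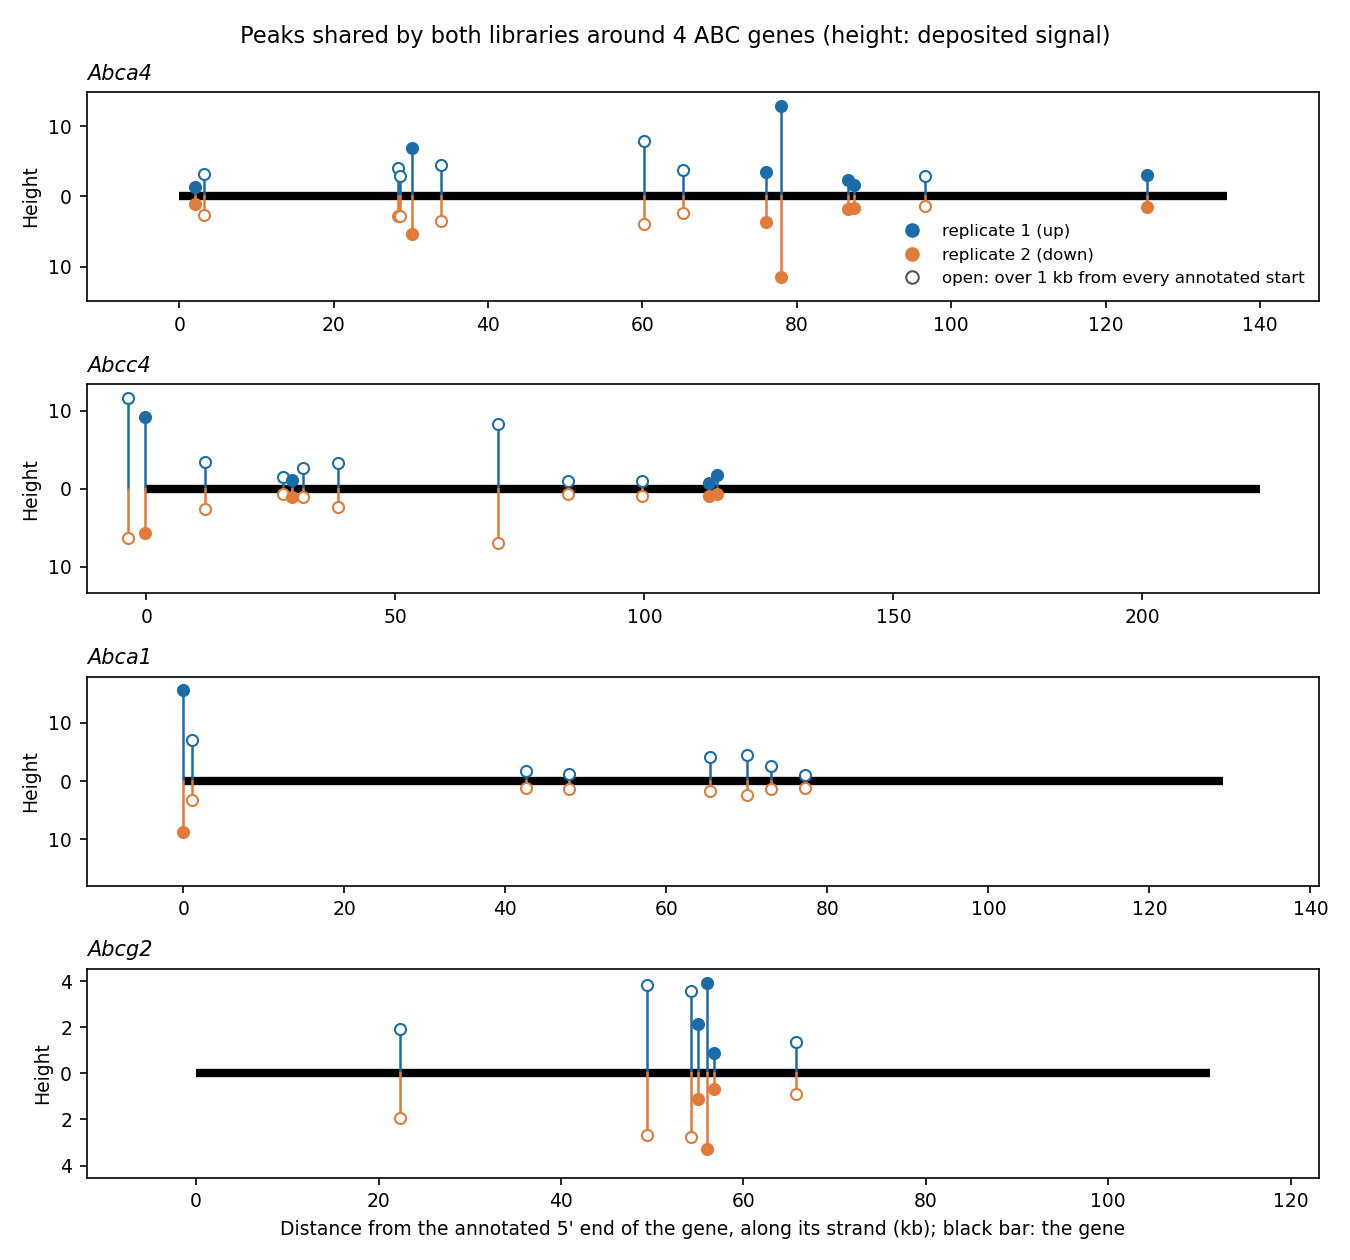
Peaks shared by both libraries around Abca4, Abcc4, Abca1 and Abcg2, by distance from the annotated 5′ end along the gene's strand (kb, horizontal axis), with height (deposited signal, vertical axis) upward for replicate 1 and downward for replicate 2; open points lie over 1 kb from every annotated start. In replicate 1 the tallest Abcc4 peak lies before the gene and in replicate 2 inside it, and Abca4 and Abcg2 have their tallest peaks inside the annotated gene.

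Distal peaks also stood near genes without a promoter peak in both libraries. Abcc12 had 4 shared peaks, the tallest, chr8:86585761-86585920, 5.16 kb upstream with heights of 4.33 and 1.76. Ugt2a3 had a peak 3.52 kb upstream, chr5:87340601-87340820, with heights of 4.41 and 3.66, the tallest peak near any UGT gene outside the Ugt1 cluster. Abcg1 had 3 such peaks, of which the tallest had 3.46 and 2.13 at 3.02 kb, against 1.25 in replicate 1 alone at its start. Abcc1 had 5, up to 1.71 and 1.49. These genes were chosen for naming after their values were seen.

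Footprints followed the peaks. Footprints matched between the libraries (overlap of at least 50% of the shorter) lay in the promoters of 30 of the 56 genes, against 60.5% of all genes, and these were the genes with a promoter peak in both libraries, except that Abcd2 had no such footprint and Ugt8a, with a replicate 1 peak alone, had 1. In the Ugt1 cluster 1 of 9 genes, Ugt1a6a, had a matched promoter footprint. Abca4 had 13 matched promoter footprints over its 10 starts, Abcb8 12 and Abcb9 6. Abcb8 has 9 starts and Abcb9 5, so that these windows are wider than those of genes with 1 start.

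Within the shared peaks around the 65 genes, GC boxes had 61 matches, of which 38 (62.3%) lay in footprints of both libraries, against 48.9% of the matches in all shared peaks of chromosomes 1 to 19. All 5 CRE matches lay in such footprints, against 75.1%; besides the Abcg2 match they lay in promoters of neighbouring genes near Abcb6, Abcb8 and Abcb10. Both NRF1 matches did so, against 87.9%. USF elements did so at 4 of 11 (36.4%), against 32.2%, and CCAAT boxes at 4 of 46 (8.70%), against 15.1%. Footprints of both libraries covered 11.97% of the bases of all shared peaks. The antioxidant response element lay in footprints of both libraries at 5 of 23 matches (21.7%), against 18.04%. Of the 5, those at Abca4 overlap a CTCF match, and that near Abcb8 lies in the promoter of another gene. The xenobiotic response element lay in such footprints at 0 of 6 matches, against 19.9%.

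CTCF elements were footprinted in and near transporter genes. CTCF is a zinc-finger protein that anchors chromatin loops. Of 9 matches in shared peaks around the 65 genes, 7 (77.8%) lay in footprints of both libraries, against 81.2% over all shared peaks, and no gene of the set held a CTCF match from 250 bases before to 50 after its 5′ end. Of the 7, 5 are shown, those of Abcc2, Abcc12 and Abca4, chosen after their values were seen. Capitals mark the CTCF match and, in both Abca4 stretches, an overlapping antioxidant response element. The stretches are chr19:43832566-43832617 (plus strand) in an Abcc2 intron, chr8:86536588-86536632 and chr8:86585270-86585331 (minus strand) in an intron and the upstream flank of Abcc12, and chr3:122140999-122141051 and chr3:122169745-122169796 (plus strand) in Abca4.
Abcc2 intron: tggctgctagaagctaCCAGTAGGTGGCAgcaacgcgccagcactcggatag
Abcc12 intron: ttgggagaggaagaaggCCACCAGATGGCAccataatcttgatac
Abcc12 upstream flank: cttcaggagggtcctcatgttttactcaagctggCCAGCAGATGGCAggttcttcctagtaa
Abca4 intron: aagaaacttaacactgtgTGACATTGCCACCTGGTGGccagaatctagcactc
Abca4 near an internal start: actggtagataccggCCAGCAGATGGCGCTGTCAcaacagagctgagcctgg

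Most of the genes listed as supplying and regulating the pathway had a promoter peak in both libraries. All 5 genes of UDP-glucuronate supply and reversal had a peak in both libraries, with heights of 21.1 and 13.1 at Ugdh, which makes UDP-glucuronic acid, 16.4 and 12.5 at Ugp2, which makes its precursor, and 4.27 and 2.58 at Gusb, which removes glucuronic acid again. These 3 were taller than any UGT promoter in both libraries, whereas Slc35d2, a carrier of UDP-sugars, was below Ugt1a2 in replicate 1, at 3.41 (2.48 in replicate 2). Of 14 regulators, 13 had a promoter peak in both. Nfe2l2, which encodes NRF2, had 31.04 and 26.2, and Ahr, the aryl hydrocarbon receptor, had 5.92 and 3.60. The exception was Nr1i3, the constitutive androstane receptor, with 1.37 in replicate 1 only. Of ABC proteins outside the symbol rule, among them Abce1, Tap1 and Cftr, 8 of 8 had a promoter peak in both. Among all genes 62.2% did, with 72.1% in the middle and 92.3% in the CpG-richest group. The median CpG ratio was 0.702 in the supply genes, 0.551 in the regulators, 0.763 in these ABC genes and 0.568 in all genes. The part of base composition in these counts was not tested.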

How the data were processed

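DNase-seq was run on 2 kidney libraries, and per the deposited description the authors derived every file from a filtered mm10 alignment of that library alone. The aligner and peak caller were not given in the sources used here. Peak height is a deposited signal value on an unstated scale, taken from the stricter (fewer-row) peak set of each library. The authors' footprint files carry a p-value threshold of 0.01 in every row, so footprints were counted, and the deposited false discovery rate files (a q-value below 0.05 per interval) were read only in promoter windows. The 65 genes, their role lists and the markers were chosen with earlier results of these data known. Promoters were 1 kb on each side of any GENCODE M21 start. Peaks were shared when overlapping by at least 1 base and footprints matched over at least 50% of the shorter. Heights were given for up to 6 genes per subfamily with the highest mean rank of their tallest promoter peak, for every Ugt1 gene and for every gene with a peak in 1 library; shared peaks for the 10 genes with most; sequences for the 4 genes with the highest mean rank and for footprints there that hold a motif. Other named items were chosen after their values were seen. Motif letters were written before matches were counted; GTTAAT and an HNF4-type element (CAAAGTCCA, 0 matches in the members' windows) were added last, and direct repeats, YY1 and ETS elements were also searched. Sequences are the GRCm38 (mm10) reference, not the alleles of the F1 mice. No test was run, since there was 1 group of 2 libraries; depth is unknown and no counting interval was given. The overlap and motif routines were tested on simulated data. Python 3.11.15, numpy 2.4.6, pandas 2.3.3, scipy 1.17.1 and matplotlib 3.10.9 were used.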

Additional observations from a re-analysis of the deposited data

How the results depend on the processing

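The count of genes outside the Ugt1 cluster with a promoter peak in both libraries (30 of 56) ranged from 24 to 33 under the 6 other window, start and peak-set choices that used both libraries, was 27 with the gene's 5′ end as the only start (an alternative chosen after seeing the data), and stayed below the share of all genes under each of these; with 1 library left out it was 30 to 41, and replicate 1 alone put it above all genes. The Ugt1 count of 3 was 1 with the stronger 50% of peaks and 2 with a window of 500 bases. It was also 2 with the gene's 5′ end as the only start. In the wider peak set it was 4, and with 1 library left out 3 to 5. The median of 2 shared peaks (3 in all genes) was 1 without flanks (1), 5 with flanks of 50 kb (7), 1 for peaks over 1 kb from every start (1), 2 at an overlap of 50% (2) and 3 in the wider peak set (3), with the median of all genes in parentheses. With 1 library left out it was 2 to 5, and in replicate 1 alone it was 5 against 4 in all genes. The lower median count of the set thus did not hold under most of these choices. These counts take no account of gene length. Per 100 kb of gene and flanks, at the main settings, the medians were 3.01 in the 56 genes and 4.73 in all genes. The 10 shared peaks of the Ugt1 cluster became 17 with flanks of 50 kb and 6 for peaks over 1 kb from every start, and a single library gave 19 to 20 peaks. The 30 genes with a matched promoter footprint became 6 when start and end had to be identical, against 10.7% of all genes, and were 28 to 31 under the other alternatives with both libraries and 33 to 41 with 1 library left out. No paired analysis was possible because there was 1 group. The unknown depth limits what an absent peak in replicate 2 shows.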
